A study of Rattus norvegicus with 21 samples.

Results

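The comparison described here sets livers of male Harlan Sprague Dawley rats given 489.2 mg/kg of 2-ethylhexyl diphenyl phosphate (EHDP) against livers of rats given the corn oil vehicle alone. Its members are the samples whose titles read 489.2 mg/kg (3 arrays) and 0 mg/kg (6 arrays), which makes 9 of the 21 arrays of a study that also dosed rats at 61.2, 122.5, 244.6 and 978.5 mg/kg with 3 arrays each. EHDP is an organophosphate ester, spelled EDHP in the sample titles, and 489.2 mg/kg corresponds to 1.35 mmol/kg. All rats, vehicle rats included, were gavaged on 4 days, and pieces of the left liver lobe were frozen on day 5. The treatment protocol gives 5 rats to the vehicle group, while 6 arrays carry dose 0 and all 6 entered the comparison. The question was which of 14218 measured liver genes differed between treated and vehicle rats. Levels are log2 array signals, differences are 489.2 mg/kg minus vehicle on that scale with standard errors (SE, n = 3 against 6), and "rose" and "fell" are used of genes with a limma adjusted p under 0.05 over all genes.

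The liver meets swallowed chemicals first. Hepatocytes sense many of them through the nuclear receptors CAR and PXR, through the aryl hydrocarbon receptor (AHR) and through NRF2, a factor released from its inhibitor KEAP1 by reactive compounds. These sensors switch on enzymes that oxidise or hydrolyse the chemical, enzymes that couple it to glucuronic acid, sulfate or glutathione, and pumps that export the product. The same cells run a circadian clock, burn and make fat, and keep proteins folded with heat shock chaperones.

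Hepatocyte genes were abundant in both groups. The albumin gene Alb stood at 15.36, 15.35 and 15.33 at 489.2 mg/kg, and between 15.34 and 15.35 in the vehicle. Of 16 hepatocyte markers 0 passed the limma test and 4 had an unadjusted p under 0.05, beside 2059 of all 14218 genes. Array medians of all 21 arrays ran from 6.333 to 6.407, and the median difference over all genes at 489.2 mg/kg was 0.007. Replicate 1 of 489.2 mg/kg stood apart in several lists of non-hepatocyte markers. In that array 14 of 15 macrophage markers lay below all vehicle arrays, against 0 of 15 in replicate 2 and 2 of 15 in replicate 3. The mean of the 15 markers was 8.45, 9.65 and 9.73 at 489.2 mg/kg, against a vehicle range of 9.32 to 9.76. Of 17 stellate cell markers 11 lay below all vehicle arrays in replicate 1, against 1 in replicate 2 and 6 in replicate 3. Lymphocyte markers lay below in 10, 3 and 0 of 18, and endothelial markers in 6, 1 and 1 of 13, in replicates 1, 2 and 3. In the same order the counts were 3, 2 and 3 of 8 red cell, 1, 1 and 0 of 8 neutrophil and 1, 0 and 2 of 7 bile duct markers. The list mean of replicate 1 was below the vehicle range for lymphocyte (6.09 against 6.26 to 6.64) and endothelial markers (8.27 against 8.3 to 8.91). The same held for red cell markers (7.02 against 7.25 to 7.89). Of the 16 hepatocyte markers 9, 6 and 10 lay below all vehicle arrays in replicates 1, 2 and 3, and 5, 2 and 3 above. Vehicle replicate 6 had the lowest mean correlation with the other arrays (0.9878). Named calls that were lost without replicate 1 of 489.2 mg/kg are given as such in the paragraph that names them.

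In all, 412 genes (2.9% of 14218) passed the test at 489.2 mg/kg, of which 215 (1.51%) rose and 197 (1.39%) fell. At least 2-fold changes were seen in 57 of them (0.401% of all genes). In 355 of the 412 genes none of the 3 treated arrays overlapped the 6 vehicle arrays, an arrangement found in 6.42% of all genes. The count was 157 without replicate 1 of 489.2 mg/kg and 251 without replicate 3. It stayed between 310 and 514 when replicate 2 or any 1 vehicle array was left out. Fitted on the 9 arrays alone, with no spread borrowed from the other doses, it was 160. Of the 85 named genes that passed, 40 did so in all 9 fits that each left out 1 array. Without replicate 1 of 489.2 mg/kg 37 of them failed, against 16 without replicate 2 and 26 without replicate 3. The list counts below are to be read beside the shares of all genes, 1.51% that rose and 1.39% that fell. Some genes belong to more than 1 list, so the counts of different lists are not separate results.

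**Figure D1:**
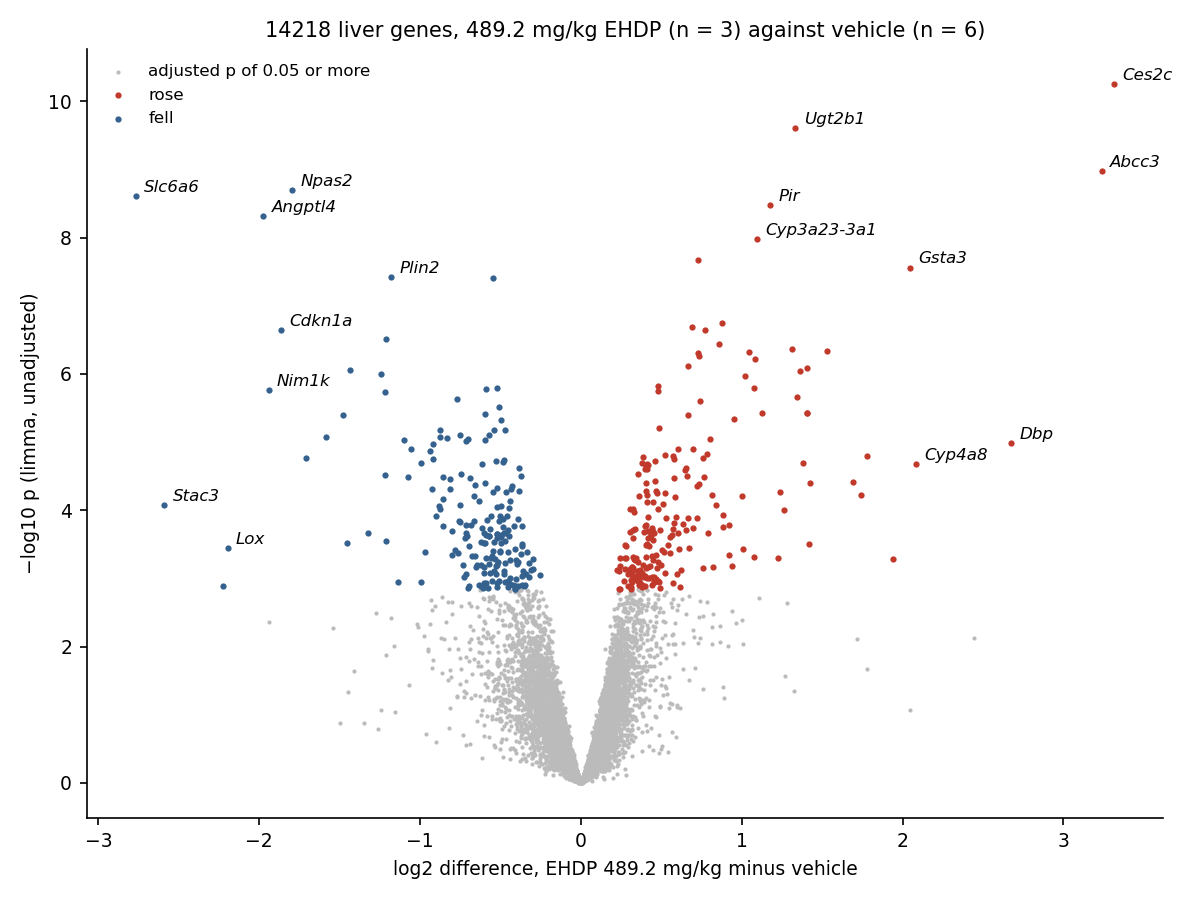
Each point is 1 of 14218 genes, with its log2 difference (489.2 mg/kg minus vehicle) on the x axis and −log10 of the unadjusted limma p on the y axis. The 215 genes that rose are red, the 197 that fell are blue, and Ces2c, Abcc3 and Slc6a6 stand farthest out.

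Most target genes of CAR and PXR rose, with the ester-cleaving enzyme Ces2c and the conjugate pump Abcc3 at the top. Of 20 measured targets 13 rose and 0 fell, and 10 rose without replicate 1. Their median log2 difference was 0.67, beside 0.007 for all genes. Ces2c, a carboxylesterase, stood at 12.91, 11.62 and 12.38 at 489.2 mg/kg, against vehicle arrays from 8.52 to 9.21 with a median of 9.12. Abcc3, which moves glucuronides from hepatocytes into blood, stood at 10.60, 10.33 and 9.58, against 6.65 to 7.24 with a median of 6.94. Neither gene came near an overlap between the groups. The differences were 3.32 ± 0.26 for Ces2c (9.97-fold, limma adjusted p = 7.94e-07) and 3.24 ± 0.30 for Abcc3 (9.45-fold, limma adjusted p = 4.91e-06). Ugt2b1, a glucuronosyltransferase, stood at 14.01, 14.16 and 14.22 at 489.2 mg/kg, against 12.46 to 13.10 with a median of 12.74 in the vehicle. Its 3 treated arrays lay close together and far above the vehicle (1.33 ± 0.11, 2.52-fold, limma adjusted p = 1.75e-06). The aldose reductase relative Akr1b7 had a large difference, 1.78, that did not pass (limma adjusted p = 0.224).

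Members of the same list that oxidise chemicals, or serve the enzymes that do, differed in size and call. Cyp3a23-3a1, a main drug-oxidising cytochrome P450, stood at 14.68, 14.44 and 13.93 at 489.2 mg/kg, against 13.11 to 13.44 with a median of 13.26 in the vehicle. The groups did not overlap (1.09 ± 0.12, 2.13-fold, limma adjusted p = 1.89e-05). Alas1, which starts the synthesis of the haem that cytochromes P450 carry, stood at 11.85, 11.88 and 11.87, against 9.98 to 11.17 with a median of 10.38. The 3 treated values were nearly the same, while the vehicle spread over more than 1 log2 unit (1.36 ± 0.19, 2.57-fold, limma adjusted p = 0.000455). Por, the reductase that feeds electrons to cytochromes P450, rose by 1.08 ± 0.26, although 1 of its 3 arrays lay within the vehicle range and it did not pass without replicate 1 or replicate 3. Rises were also measured for the aldehyde oxidising enzyme Aldh1a1 (1.02 ± 0.15) and the microsomal epoxide hydrolase Ephx1 (0.74 ± 0.11). Cyp2c6v1 rose by 0.35 ± 0.07 and Cyp3a2 by 0.23 ± 0.06, and Cyp3a2 did not pass without any 1 of the 3 treated arrays. The other cytochromes P450 of the list did not pass, with differences of 0.00 for Cyp2c7, -0.07 for Cyp2a1 and 0.32 for Cyp3a9. The receptors themselves did not pass. The PXR gene Nr1i2 differed by -0.33 ± 0.13 (limma adjusted p = 0.216) and the CAR gene Nr1i3 by -0.29 ± 0.31 (limma adjusted p = 0.755). Of 18 genes for such receptors and regulators the one that rose was Keap1 (0.33 ± 0.07). It did not pass without replicate 3 of 489.2 mg/kg (limma adjusted p = 0.0523).

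Among 30 conjugating enzymes 8 rose and 0 fell, and 5 rose without replicate 1. Of these 8, Ugt2b1 and Gstm1 are also in the CAR and PXR list, and Gsta3, Gsta4 and Gstm1 in the NRF2 list. Glutathione transferases supplied Gsta3, Gsta4 (0.73 ± 0.10), Gstm4 (0.70 ± 0.12) and Gstm1 (0.52 ± 0.10), with the related membrane enzyme Mgst2 (0.49 ± 0.08). The sulfotransferase Sult2a6 rose by 0.94 ± 0.23 and the glucuronosyltransferase Ugt2b10 by 0.44 ± 0.10. Gstm1, Sult2a6 and Ugt2b10 did not pass without replicate 1. Transporters split by direction. Of 24 measured, 3 rose and 4 fell, and the falls were 2 without replicate 1. The efflux pumps Abcb1a (1.13 ± 0.18) and Abcc2 (0.61 ± 0.14) rose beside Abcc3. Abcc2 did not pass without replicate 2 (limma adjusted p = 0.0819) or replicate 3 (limma adjusted p = 0.151). Slc22a8, which takes up organic anions, stood at 11.04, 11.41 and 10.21 at 489.2 mg/kg, against 11.68 to 12.17 with a median of 11.98 in the vehicle. It fell by 1.08 ± 0.20 with no overlap (2.11-fold, limma adjusted p = 0.00445). The other falls were those of the phospholipid transporter Abcb4 (-0.50 ± 0.12), of Abcc6 (-0.45 ± 0.12) and of the anion carrier Slc22a7 (-0.38 ± 0.07). Abcb4 and Abcc6 did not pass without replicate 1.

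**Figure D2:**
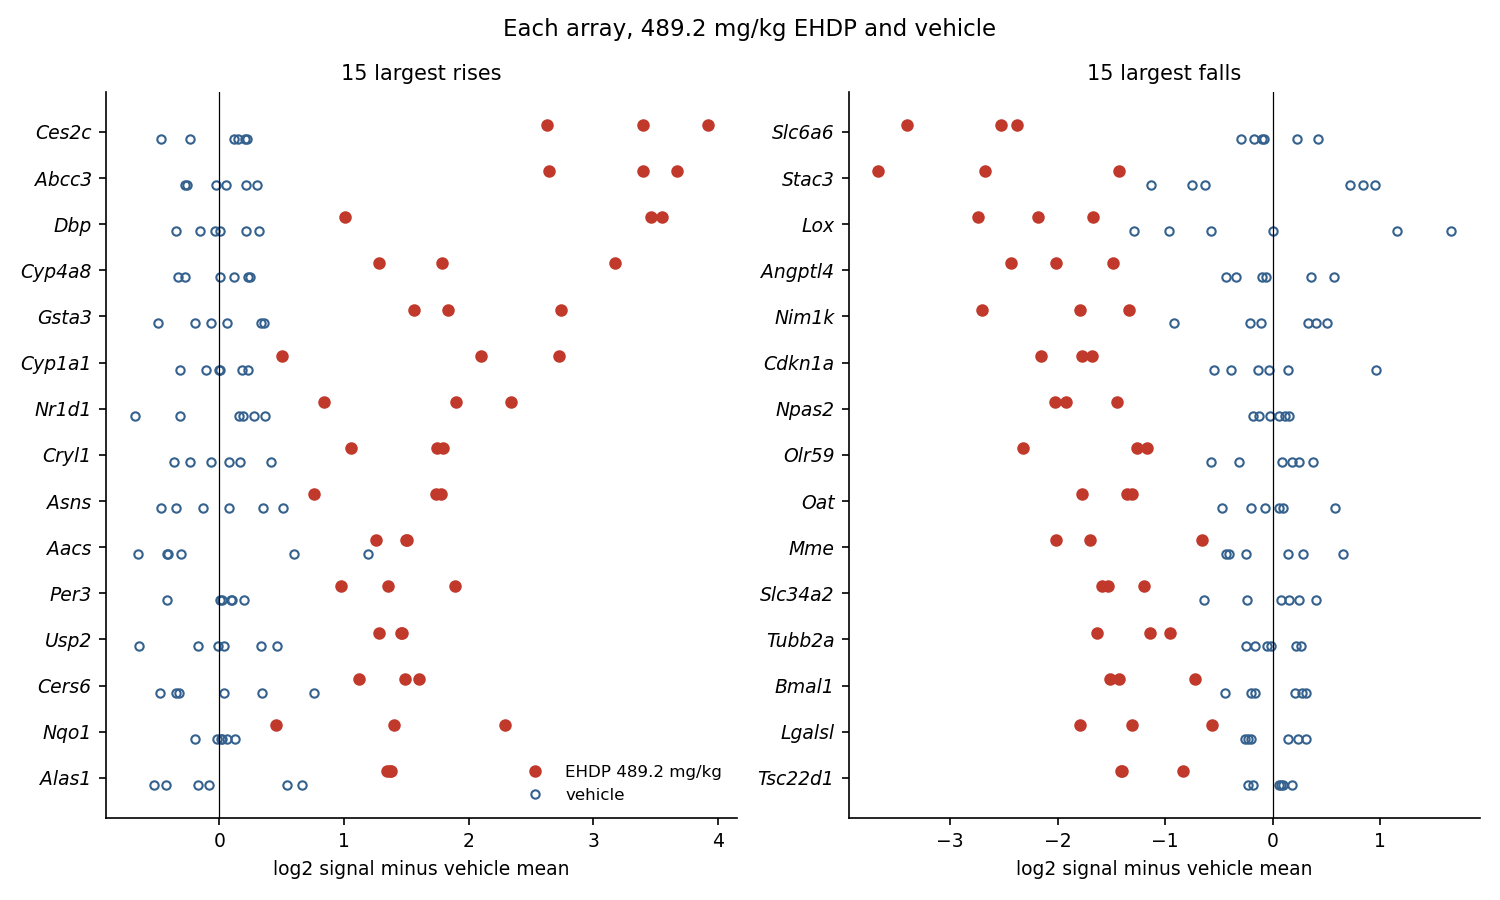
Each row is a gene and each point an array, as its log2 signal minus the vehicle mean of that gene, for the 15 largest rises (left) and 15 largest falls (right) in which the groups did not overlap. Filled red points are the 3 arrays of 489.2 mg/kg and open blue points the 6 vehicle arrays, and Dbp, Cyp1a1 and Cyp4a8 show the widest treated spread among the rises.

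Many antioxidant genes under NRF2 rose. Of 25 measured 13 rose and 0 fell, beside 1.51% of all genes that rose. Without replicate 1, 11 rose, and the median log2 difference of the list was 0.52. The other 12 did not pass, with differences from -0.12 for Cbr3 to 0.54 for Hmox1. Among them were Osgin1 (-0.11), Gstp1 (0.04) and Taldo1 (-0.01). Gsta3, a glutathione transferase of the alpha class, stood at 10.77, 9.59 and 9.86 at 489.2 mg/kg, against 7.54 to 8.39 with a median of 8.03 in the vehicle. All treated arrays were above the vehicle range (2.04 ± 0.23, 4.12-fold, limma adjusted p = 3.91e-05). Its promoter is shown because it holds the core of the antioxidant response element to which NRF2 binds, TGACNNNGC on either strand, which the capitals mark. The stretch is GRCr8 chr9:31154899-31155018 on the plus strand, from 90 bases before to 30 after the start in RefSeq's promoter table.
Gsta3: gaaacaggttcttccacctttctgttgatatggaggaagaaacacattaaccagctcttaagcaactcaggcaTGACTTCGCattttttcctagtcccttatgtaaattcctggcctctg
These letters were found in the promoter windows (250 bases before to 50 after the start) of 6 of 12 members that rose and had a window, of 8 of 23 members in all, and of 12.1% of 33469 windows.

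Pir, an iron-binding nuclear protein that NRF2 controls in human cells, stood at 8.74, 8.51 and 8.71 at 489.2 mg/kg, against 7.30 to 7.69 with a median of 7.49 in the vehicle. The treated arrays lay close together, well above the vehicle (1.18 ± 0.12, 2.26-fold, limma adjusted p = 7.96e-06). Nqo1, a quinone reductase, spread more widely, with 10.33, 9.38 and 11.22 against 8.73 to 9.05 and a median of 8.94. Even its lowest treated array, replicate 2, exceeded every vehicle array (1.38 ± 0.25, 2.61-fold, limma adjusted p = 0.00339). The aflatoxin aldehyde reductase Akr7a3 stood at 12.55, 13.20 and 12.10, against 11.20 to 11.81 with a median of 11.26, and rose by 1.26 ± 0.26. It did not pass without replicate 2 (limma adjusted p = 0.0589). The glutathione cycle was represented by the reductase Gsr (0.96 ± 0.15) and by both subunits of the enzyme that starts glutathione synthesis, Gclc (0.65 ± 0.14) and Gclm (0.63 ± 0.14). Gclc did not pass without replicate 3 (limma adjusted p = 0.0936), nor Gclm without replicate 1 or replicate 2. The NADPH-making malic enzyme Me1 (0.89 ± 0.19), sulfiredoxin Srxn1 (0.59 ± 0.12) and thioredoxin reductase Txnrd1 (0.41 ± 0.09) rose as well. Of these, Me1 did not pass without replicate 3 (limma adjusted p = 0.0747). Hmox1, which breaks down haem, differed by 0.54 ± 0.26 and did not pass (limma adjusted p = 0.341), and the NRF2 gene Nfe2l2 differed by -0.14 ± 0.16.

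Targets of the AHR were divided. Cyp1a1, the cytochrome P450 that marks AHR activity, stood at 8.61, 6.40 and 7.99 at 489.2 mg/kg, against 5.58 to 6.12 with a median of 5.89 in the vehicle. Replicate 2 lay just above the vehicle and the others far above it (1.78 ± 0.31, 3.43-fold, limma adjusted p = 0.0031). Cyp1a2, the related enzyme that is abundant around the central vein, stood at 12.54, 13.07 and 13.03, against 13.30 to 13.66 with a median of 13.45. It fell by 0.59 ± 0.13 (limma adjusted p = 0.0155) and did not pass without replicate 1 (limma adjusted p = 0.207). Of 7 AHR targets 2 rose, Cyp1a1 and Nqo1, and 1 fell.

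Heat shock proteins and their co-chaperones, which hold and refold other proteins, lay above the vehicle mean in every one of the 16 genes measured, whereas 47.7% of all genes lay below it. Of the 16, 6 rose and 0 fell, with a median log2 difference of 0.38. Only Chordc1 of these passed without replicate 1. The mean level of the list was 10.61, 10.32 and 10.50 at 489.2 mg/kg, against 9.87 to 10.36 with a median of 10.14 in the vehicle, so replicate 2 lay within the vehicle range. Hsph1, a large chaperone that exchanges nucleotide on HSP70, stood at 10.76, 10.34 and 10.54 at 489.2 mg/kg, against 9.05 to 10.08 with a median of 9.82 in the vehicle. Every treated array was above the vehicle (0.84 ± 0.17, 1.79-fold, limma adjusted p = 0.00839). Chordc1, a co-chaperone of HSP90, stood at 10.47, 9.95 and 10.28, against 9.17 to 9.71 with a median of 9.49. The groups were again apart (0.76 ± 0.13, 1.69-fold, limma adjusted p = 0.00321). Stip1, which links HSP70 to HSP90, rose by 0.70 ± 0.15, the small chaperone Hspb8 by 0.57 ± 0.15, the HSP90 activator Ahsa1 by 0.40 ± 0.10 and the HSP70 partner Dnaja1 by 0.37 ± 0.09.

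Promoters of 3 of these genes are shown for the heat shock element to which the factor HSF1 binds, searched as GAANNTTC, a palindrome, and marked in capitals. Each stretch runs from 90 bases before to 30 after the RefSeq start on GRCr8, all on the plus strand, at chr12:10427278-10427397 for Hsph1, chr8:23650731-23650850 for Chordc1 and chr5:60638314-60638433 for Dnaja1.
Hsph1: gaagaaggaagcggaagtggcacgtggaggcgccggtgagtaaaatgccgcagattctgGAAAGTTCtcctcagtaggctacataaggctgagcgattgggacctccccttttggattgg
Chordc1: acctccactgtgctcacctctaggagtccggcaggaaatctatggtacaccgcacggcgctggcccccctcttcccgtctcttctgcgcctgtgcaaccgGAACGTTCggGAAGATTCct
Dnaja1: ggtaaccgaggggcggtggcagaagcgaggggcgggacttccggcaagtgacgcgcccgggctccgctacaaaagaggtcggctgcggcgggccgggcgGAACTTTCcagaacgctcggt
The letters were present in the windows of 4 of the 6 heat shock genes that rose, of 10 of 14 list members with a window and of 8.6% of all windows. The motif was added after the values were seen.

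Proteasome subunits, which make up the complex that degrades tagged proteins, differed by less. Of 26 measured, 25 lay above the vehicle mean, 6 rose and 0 fell, with a median of 0.24 and 1 rise, that of Psma5, without replicate 1. Psma5, a subunit of the core ring, stood at 11.42, 11.45 and 11.56 at 489.2 mg/kg, against 10.86 to 11.24 with a median of 11.10 in the vehicle. Its difference of 0.41 ± 0.07 was the largest of the list (1.33-fold, limma adjusted p = 0.00359). The other rises, Psma1, Psmc5, Psma7, Psmd4 and Psmb4, lay between 0.24 and 0.37. Of 22 respiratory chain subunits 0 passed the limma test, 1 had an unadjusted p under 0.05, and the median was 0.00.

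**Figure D3:**
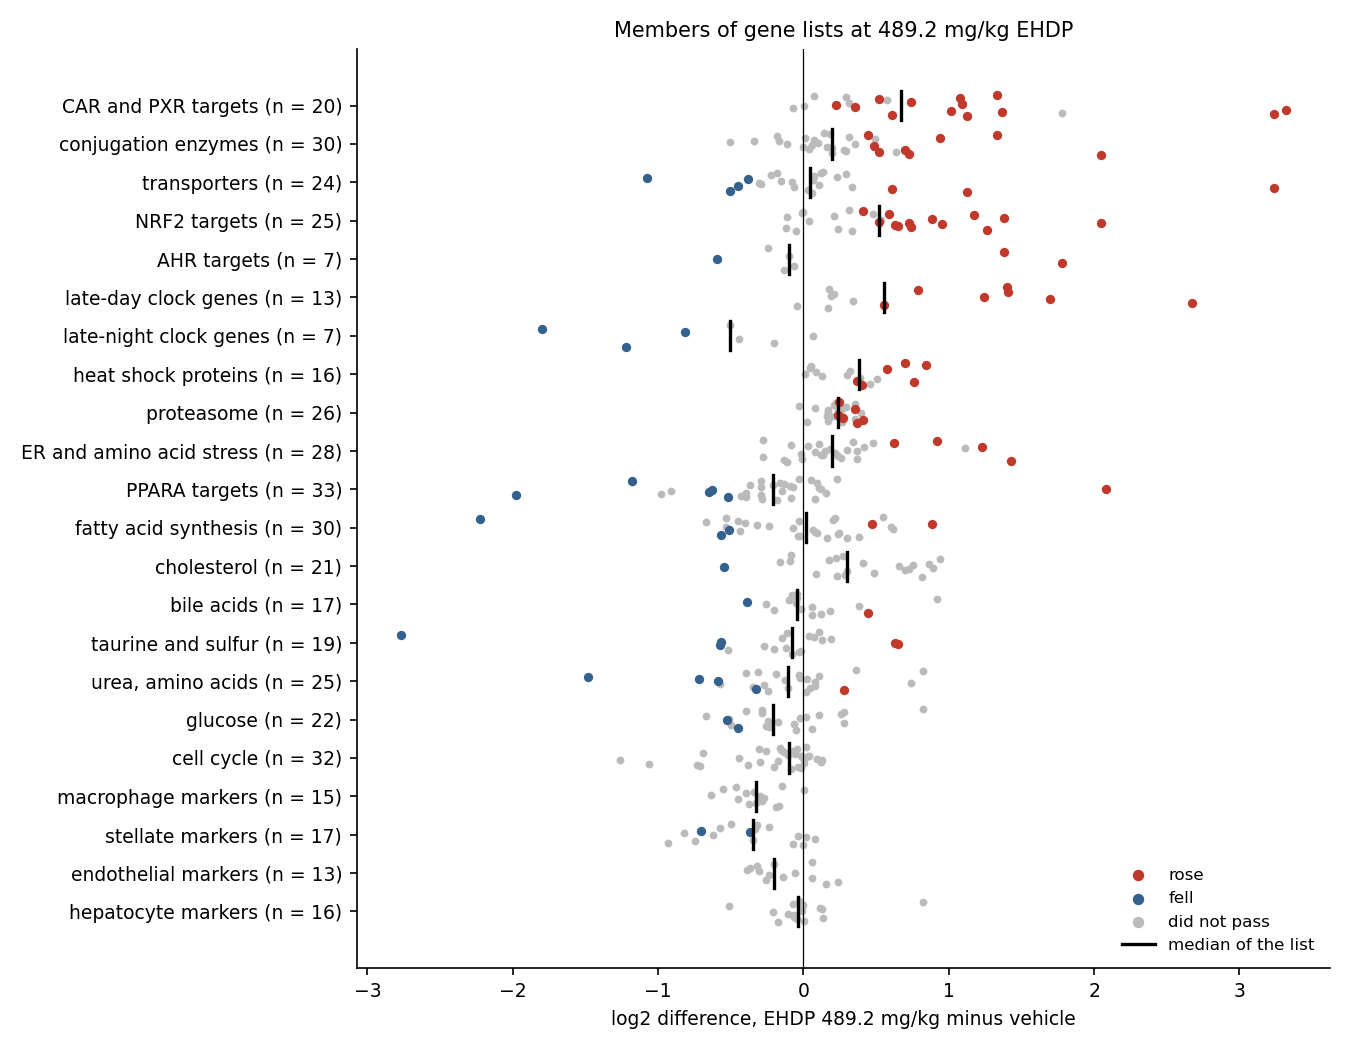
Each point is a gene of the list named on the left, placed by its log2 difference (489.2 mg/kg minus vehicle), red where it rose, blue where it fell and grey where it did not pass. Black bars are list medians, which run from -0.51 for late-night clock genes to 0.67 for CAR and PXR targets.

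Clock genes moved in opposite directions by phase. In the liver the activators CLOCK, NPAS2 and BMAL1 drive genes such as Dbp, Per3 and Nr1d1 through E-boxes, and REV-ERB alpha, the product of Nr1d1, represses Bmal1 and Npas2 in return. Of 13 genes high late in the day 7 rose and 0 fell, and 6 rose without replicate 1. Of 7 genes high late at night 3 fell and 0 rose, the same number without replicate 1. Dbp, a transcription factor of the clock's output, stood at 6.79, 9.34 and 9.24 at 489.2 mg/kg, against 5.44 to 6.10 with a median of 5.77 in the vehicle. Replicate 1 rose far less than the others, but all were above the vehicle (2.67 ± 0.45, 6.39-fold, limma adjusted p = 0.00226). Nr1d1 stood at 7.29, 8.79 and 8.34, against 5.77 to 6.81 with a median of 6.62. Replicate 1 was again the lowest treated array (1.69 ± 0.32, 3.23-fold, limma adjusted p = 0.00503). Npas2 stood at 7.50, 6.93 and 7.03, against 8.77 to 9.11 with a median of 8.97. Its groups lay more than 1 log2 unit apart (-1.80 ± 0.17, 3.47-fold, limma adjusted p = 6.9e-06).

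Bmal1, the partner of CLOCK and NPAS2, stood at 7.80, 7.01 and 7.09 at 489.2 mg/kg, against 8.08 to 8.84 with a median of 8.55 in the vehicle. Replicate 1 came nearest the vehicle, without reaching it (-1.22 ± 0.18, 2.33-fold, limma adjusted p = 0.000715). Nfil3, a repressor that competes with DBP, fell by 0.82 ± 0.16. Per3 rose by 1.41 ± 0.20, Nr1d2, which encodes REV-ERB beta, by 1.24 ± 0.24, the DBP relative Tef by 0.79 ± 0.14 and the clock repressor Cry2 by 0.55 ± 0.13, which did not pass without any 1 of the 3 treated arrays. Usp2, a deubiquitinase whose transcript follows the clock, stood at 8.35, 8.36 and 8.18, against 6.24 to 7.35 with a median of 6.91. Here the treated arrays lay close together (1.40 ± 0.22, 2.64-fold, limma adjusted p = 0.00122). Per1 (0.19) and Per2 (0.21) did not pass. The mean level of the 13 late-day genes was 8.11, 8.52 and 8.45 at 489.2 mg/kg, against 7.43 to 7.66 in the vehicle. That of the 7 late-night genes was 7.44, 7.01 and 7.13, against 7.84 to 7.98. The hour at which each liver was taken is not given in the labels, so hour of collection and dose cannot be told apart.

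**Figure D4:**
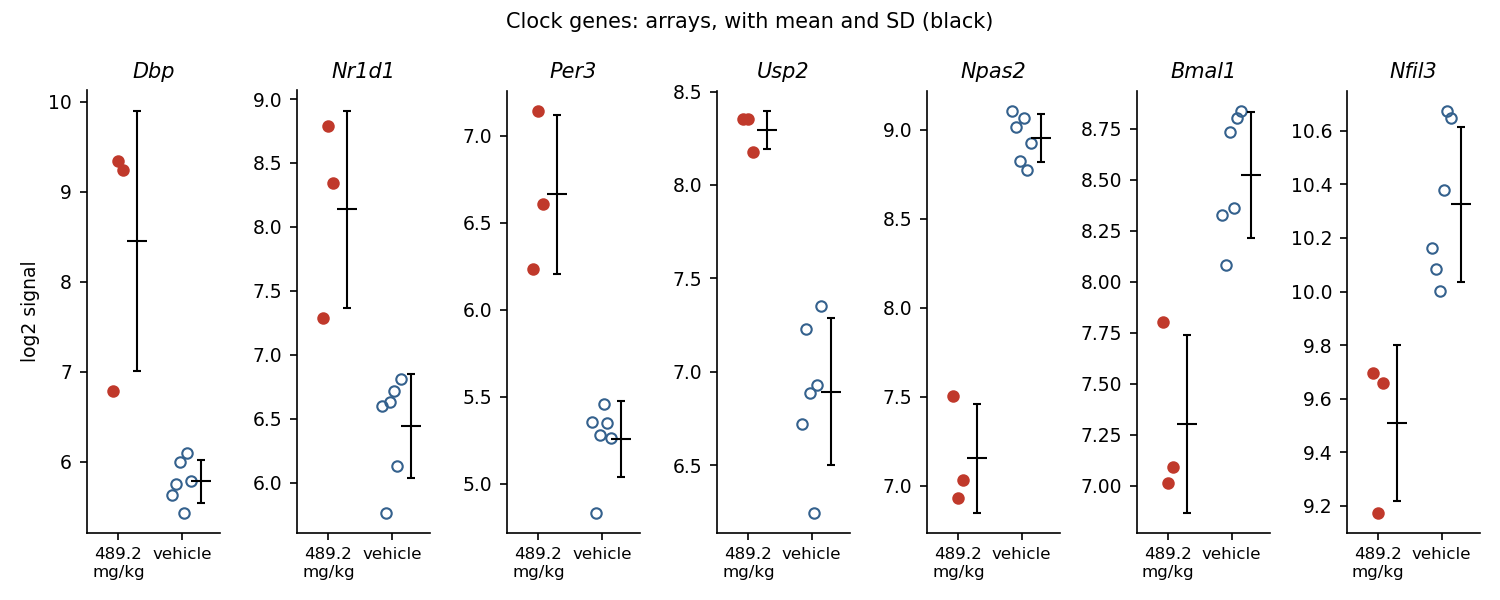
Log2 signals of 7 clock genes on each array, with the 3 arrays of 489.2 mg/kg (filled red) left of the 6 vehicle arrays (open blue), and group mean and SD in black. Dbp, Nr1d1, Per3 and Usp2 lie above the vehicle and Npas2, Bmal1 and Nfil3 below it on every treated array.

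Promoters of the feedback pair are shown because each holds the element through which the other gene's product is known to act. For Nr1d1 the capitals mark the E-box CACGTG in a stretch from 230 to 111 bases before the start, on the minus strand of GRCr8 chr10:84229565-84229684. For Bmal1 they mark TAGGTCA, the core of the element bound by REV-ERB and ROR proteins, 16 bases before the start within the plus strand stretch chr1:176766238-176766357.
Nr1d1: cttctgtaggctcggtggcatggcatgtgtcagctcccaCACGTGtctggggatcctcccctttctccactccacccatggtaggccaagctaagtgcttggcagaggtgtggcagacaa
Bmal1: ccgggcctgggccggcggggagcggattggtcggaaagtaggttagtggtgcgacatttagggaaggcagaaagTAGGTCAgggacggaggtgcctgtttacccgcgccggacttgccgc
CACGTG was found in the windows of 2 of 7 late-day genes that rose, of 4 of 11 late-day members in all and of 6.4% of all windows. TAGGTCA, added after the values were seen, was found in 1 of 3 late-night genes that fell, in Bmal1 but not in Npas2 or Nfil3. It was found in 1 of 6 late-night members in all and in 2.6% of all windows. The D-box forms TTATGTAA and TTATGCAA, each in 0.9% of windows, were found in 0 of 7 late-day genes that rose and 0 of 3 late-night genes that fell, and TTATGTAA in 1 of 11 late-day members in all. The dioxin element TTGCGTG, in 1.2% of windows, was found in 0 of 11 CAR and PXR targets that rose, and the AHR list was not searched. GAANNTTC, in 8.6% of windows, and TAGGTCA were each found in 2 of 11 CAR and PXR targets that rose. The windows of Ces2c, Dbp, Npas2 and Nqo1 hold none of CACGTG, TTATGTAA, TTATGCAA, TGACNNNGC and TTGCGTG. The window of Ces2c does hold GAANNTTC, at position -124 from the start, as does that of Ugt2b1 at -46.

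Genes that PPARA, the fatty acid receptor of fasting, switches on were more often lower than higher. Of 33 measured 1 rose and 5 fell, 25 lay below the vehicle mean, and the median was -0.21. Without replicate 1, 6 fell. Angptl4, a secreted inhibitor of lipoprotein lipase, stood at 9.39, 9.93 and 8.98 at 489.2 mg/kg, against 10.98 to 11.98 with a median of 11.33 in the vehicle. The groups were more than 1 log2 unit apart (-1.98 ± 0.20, 3.94-fold, limma adjusted p = 9.73e-06). Plin2, the coat protein of lipid droplets, stood at 11.85, 12.09 and 11.57, against 12.72 to 13.40 with a median of 13.00. No treated array reached the vehicle range (-1.18 ± 0.14, 2.27-fold, limma adjusted p = 4.63e-05). The carnitine acetyltransferase Crat (-0.65 ± 0.16), the fatty acid hydroxylase Cyp4a3 (-0.63 ± 0.17) and the thioesterase Acot2 (-0.52 ± 0.12) fell too, and each of them failed the test without replicate 3. Cyp4a8, of the same hydroxylase family, went the other way, at 8.34, 7.83 and 9.73 against 6.22 to 6.80 with a median of 6.62. Replicate 3 was its highest array (2.08 ± 0.37, 4.24-fold, limma adjusted p = 0.00339). Cyp4a1, another PPARA target, differed by -0.91 ± 0.26 with 1 array within the vehicle range and did not pass (limma adjusted p = 0.069). The Ppara transcript differed by -0.06 ± 0.13.

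In fat synthesis 2 of 30 genes rose, Me1 and the phosphatidate phosphatase Lpin2 (0.47 ± 0.12), and 3 fell, against 1 rise and 1 fall without replicate 1. Lpin2 did not pass without any 1 of the 3 treated arrays. Scd, the desaturase that makes oleate, stood at 7.54, 10.00 and 9.37 at 489.2 mg/kg, against 9.76 to 12.26 with a median of 11.10 in the vehicle. Replicate 2 overlapped the vehicle and replicate 1 lay far below all others (-2.22 ± 0.59, 4.67-fold, limma adjusted p = 0.0466). The call was lost without replicate 1, where the limma adjusted p was 0.411, and without replicate 3 or any 1 of 5 vehicle arrays. The elongase Elovl5 fell by 0.51 ± 0.08 and stayed called in all 9 fits, and the acyl-CoA synthetase Acsl5 fell by 0.57 ± 0.12 while its other probe set differed by 0.02. Without replicate 1 Acsl5 did not pass (limma adjusted p = 0.156). Fasn, the fatty acid synthase, differed by 0.60 ± 0.31 with all treated arrays inside the vehicle range. Aacs, which turns the ketone body acetoacetate into an activated precursor of lipids, stood at 8.81, 8.57 and 8.80, against 6.66 to 8.50 with a median of 6.95. The treated arrays lay close together and just above the highest vehicle array (1.42 ± 0.33, 2.68-fold, limma adjusted p = 0.019), and the gene did not pass without replicate 1 or replicate 3. Cers6, a ceramide synthase, stood at 10.06, 9.58 and 9.95, against 7.98 to 9.22 with a median of 8.32. It lay above the vehicle on every treated array (1.40 ± 0.22, 2.65-fold, limma adjusted p = 0.00122).

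Of 21 genes of cholesterol synthesis and uptake 17 lay above the vehicle mean, with a median of 0.30, but 0 rose by limma. An unadjusted p under 0.05 was reached by 11 of them, beside 2059 of all 14218 genes, and 0 to 5 rose when 1 array was left out. The largest, Sqle, an epoxidase of the sterol pathway, differed by 0.94. Insig2, which holds back sterol synthesis, fell by 0.55 ± 0.13 and did not pass without replicate 1 or replicate 3. In bile acid handling 2 of 17 genes passed. Akr1c14, a hydroxysteroid dehydrogenase, rose by 0.44 ± 0.10 but did not pass without replicate 1 (limma adjusted p = 0.174), and Fgfr4, through which a hormone from the gut curbs the making of bile acids, fell by 0.39 ± 0.07. Cyp7a1, the rate-limiting enzyme of bile acid synthesis, differed by 0.38 ± 0.39 (limma adjusted p = 0.744). Of 19 apolipoprotein and lipoprotein genes the 2 that fell were Angptl4 and hepatic lipase Lipc (-0.53 ± 0.09).

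The largest fall of all was that of Slc6a6, the taurine transporter. It stood at 6.66, 7.53 and 7.68 at 489.2 mg/kg, against 9.77 to 10.48 with a median of 9.97 in the vehicle. More than 2 log2 units separated the groups (-2.77 ± 0.27, 6.82-fold, limma adjusted p = 6.9e-06). Enzymes that make taurine did not move with it: Cdo1 differed by -0.12 and Csad by -0.27, and neither passed. Of 19 genes of taurine and sulfur amino acids 2 rose, Gclc and Gclm, named above, and 3 fell, the other falls being those of Cth, which makes cysteine (-0.58 ± 0.15), and Gnmt, which uses up methyl groups (-0.57 ± 0.14). Cth did not pass without replicate 1.

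Among 25 genes of the urea cycle and amino acid breakdown 1 rose and 4 fell, and 2 of the falls remained without replicate 1. Oat, the ornithine aminotransferase of pericentral hepatocytes, stood at 9.68, 9.26 and 9.73 at 489.2 mg/kg, against 10.57 to 11.62 with a median of 11.04 in the vehicle. The groups did not overlap (-1.48 ± 0.23, 2.79-fold, limma adjusted p = 0.00122). Kynu, of tryptophan breakdown, fell by 0.72 ± 0.12, the histidine-degrading Hal by 0.59 ± 0.14 and the urea cycle lyase Asl by 0.32 ± 0.08. Arginase, Arg1, rose by 0.28 ± 0.06 but did not pass without replicate 1 (limma adjusted p = 0.117) or replicate 3. Hal and Asl did not pass without replicate 1 either. Of 22 glucose genes 2 fell, pyruvate carboxylase Pc (-0.53 ± 0.13) and the glucokinase regulator Gckr (-0.45 ± 0.11), and 0 fell without replicate 1.

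Of 28 genes of endoplasmic reticulum and amino acid stress 4 rose, and 0 rose without replicate 1. In replicate 1, 22 of the 28 lay above all vehicle arrays, against 8 in replicate 2 and 6 in replicate 3. Asns, asparagine synthetase, stood at 9.76, 9.71 and 8.73 at 489.2 mg/kg, against 7.51 to 8.48 with a median of 7.95 in the vehicle. Replicate 3 was close to the highest vehicle array (1.43 ± 0.27, 2.69-fold, limma adjusted p = 0.00509). The serine-making Psat1 rose by 1.23 ± 0.29 with replicate 3 inside the vehicle range, the stress pseudokinase Trib3 by 0.92 ± 0.22 and the amino acid transporter chain Slc3a2 by 0.62 ± 0.16. The other 24 did not pass, among them the serine-making Phgdh (1.11), the stress factors Ddit3 (0.14) and Atf3 (-0.13), Chac1 (-0.28) and the endoplasmic reticulum chaperone Hspa5 (0.15).

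Cdkn1a, the p53 target that halts the cell cycle, stood at 8.33, 8.42 and 7.95 at 489.2 mg/kg, against 9.56 to 11.06 with a median of 10.01 in the vehicle. All treated arrays were below the vehicle (-1.87 ± 0.24, 3.65-fold, limma adjusted p = 0.0002), and its other probe set differed by -0.39. Mdm2, another p53 target and its inhibitor, rose by 0.45 ± 0.09 but did not pass without replicate 1 (limma adjusted p = 0.0508). The other 12 of 14 genes of this list did not pass.

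Several of the largest falls belong to no such group. Stac3, an adaptor of calcium channels in muscle, stood at 7.72, 8.72 and 9.97 at 489.2 mg/kg, against 10.27 to 12.34 with a median of 11.44 in the vehicle. No vehicle array lay near that median: replicates 1 to 3 stood at 12.11, 12.24 and 12.34, and replicates 4 to 6 at 10.76, 10.27 and 10.64. The treated arrays spread over more than 2 log2 units (-2.59 ± 0.52, 6.02-fold, limma adjusted p = 0.00844), and the gene did not pass without replicate 1. Lox, the enzyme that cross-links collagen, stood at 5.05, 5.56 and 4.49, against 5.94 to 8.89 with a median of 6.95. It too failed without replicate 1 or replicate 3 (-2.20 ± 0.51, 4.58-fold, limma adjusted p = 0.0208). Nim1k, a kinase related to AMPK, stood at 5.87, 6.32 and 4.96, against 6.74 to 8.16 with a median of 7.77. Its fall held in all 9 fits (-1.94 ± 0.29, 3.84-fold, limma adjusted p = 0.000701). Falls were also measured for the olfactory receptor gene Olr59 (-1.58 ± 0.26), the peptidase Mme (-1.46 ± 0.33), the phosphate transporter Slc34a2 (-1.43 ± 0.20), the tubulin Tubb2a (-1.24 ± 0.18) and the galectin-like Lgalsl (-1.22 ± 0.23). Of these, Mme did not pass without replicate 1 (limma adjusted p = 0.199) or replicate 3. Tsc22d1, a leucine zipper regulator, fell by 1.21 ± 0.16, while its other probe sets ran up to 0.21. Among the rises outside the groups was Cryl1, a dehydrogenase of the glucuronate pathway, at 10.48, 10.53 and 9.79 against 8.37 to 9.15 with a median of 8.74. Its treated arrays all lay above the vehicle (1.53 ± 0.21, 2.89-fold, limma adjusted p = 0.000315).

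Iron and hormone genes gave smaller counts. Of 17 haem genes 3 rose, namely Alas1, the biliverdin reductase Blvrb (0.58 ± 0.11) and Tfrc. Tfrc, the transferrin receptor, stood at 11.87, 10.86 and 11.74 at 489.2 mg/kg, against 10.14 to 10.85 with a median of 10.46 in the vehicle. Replicate 2 sat at the top of the vehicle range and the others well above it (1.0 ± 0.20, 2.0-fold, limma adjusted p = 0.00664). Tfrc did not pass without replicate 1 or replicate 3, nor Blvrb without replicate 1 (limma adjusted p = 0.051). Of 15 male-biased genes under growth hormone 2 rose, Cyp3a18 (0.57 ± 0.12) and Cyp3a2, and 2 fell, the growth hormone receptor Ghr (-0.44 ± 0.11) and Igfbp3 (-0.68 ± 0.15). None of these 4 passed without replicate 1. Of 13 female-biased genes 1 rose, Sult2a6, and 2 fell, the steroid hydroxylase Cyp17a1 (-1.21 ± 0.27) and the peroxisomal oxidase Hao2 (-0.94 ± 0.16). Sult2a6 did not pass without replicate 1 or replicate 3, nor Cyp17a1 without replicate 2 or replicate 3. In the thyroid list 3 of 14 genes rose, all of them named above (Abcc3, Ugt2b1 and Me1), and the deiodinase Dio1 differed by -0.28 ± 0.14.

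Non-hepatocyte cells were measured through their markers, and in whole liver fewer cells of a type and less RNA per cell cannot be told apart. Of 15 macrophage markers 14 lay below the vehicle mean, against 47.7% of all genes, and the median was -0.32. Of these 15, 0 passed the limma test and 3 had an unadjusted p under 0.05, beside 2059 of all 14218 genes. The Kupffer cell lectin Clec4f differed by -0.64 and the scavenger receptor Cd163 by -0.45. The mean level of the list was within the vehicle range in replicates 2 and 3 and below it in replicate 1. Of 17 stellate cell markers 2 fell, the growth factor receptors Pdgfrb (-0.71 ± 0.16, its other probe set 0.03) and Pdgfra (-0.37 ± 0.09). Pdgfrb did not pass without replicate 3, nor Pdgfra without any 1 of the 3 treated arrays. The list mean was 7.35, 7.94 and 7.79 at 489.2 mg/kg, against 7.82 to 8.26 in the vehicle. The part of these cells in the falls of Lox and Mme was not tested. Of 13 endothelial, 18 lymphocyte, 8 neutrophil, 7 bile duct and 8 red cell markers 0 passed the limma test, and 1, 4, 0, 1 and 4 of them in that order had an unadjusted p under 0.05. In the acute phase list 1 of 20 genes rose, Orm1, a plasma glycoprotein, at 14.68, 13.56 and 14.82 against 13.31 to 13.93 with a median of 13.51. Replicate 2 was within the vehicle range (0.82 ± 0.20, limma adjusted p = 0.0313), and the call was lost without replicate 1 or replicate 3. Lcn2, an iron-chelator carrier, differed by 2.05 and did not pass. Of 24 interferon and antigen presentation genes 0 passed by limma, with 2 at an unadjusted p under 0.05.

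Against the next lower dose, 244.6 mg/kg, 489.2 mg/kg differed in 242 genes (1.7% of 14218), 29 higher and 213 lower (1.5%). Of the 242 genes, 41 also passed at 489.2 mg/kg against the vehicle. Of the 213, 150 rose at 244.6 mg/kg against the vehicle, in a comparison that shares the 244.6 mg/kg arrays. The count of 242 fell to 41 and 59 without replicates 1 and 2 of 244.6 mg/kg, and to 69 and 117 without replicates 1 and 3 of 489.2 mg/kg. Genes of DNA replication and mitosis led the comparison. Of 32 measured 22 were lower at 489.2 mg/kg than at 244.6 mg/kg, and 31 of 32 had a negative difference, with a median of -1.47. At 244.6 mg/kg 22 of the 32 rose against the vehicle, with a median of 1.44. The mean level of the list was 6.14, 6.75 and 5.99 at 489.2 mg/kg, against 8.17, 8.04 and 7.49 at 244.6 mg/kg. At 489.2 mg/kg it lay around the vehicle range of 6.10 to 6.88, and 0 of the 32 passed the limma test against the vehicle (1 at an unadjusted p under 0.05). The number of lower genes was 1 without replicate 1 and 2 without replicate 2 of 244.6 mg/kg, and 6 and 7 without replicates 1 and 3 of 489.2 mg/kg, while the median stayed between -1.76 and -1.31 in the 6 fits that each left out 1 array. Mki67, which marks dividing cells, stood at 4.17, 5.73 and 4.21 at 489.2 mg/kg, against 8.79, 8.30 and 7.47 at 244.6 mg/kg. The groups were far apart, and since the mean at 489.2 mg/kg lay under the 20th percentile of all probe sets (4.747) the level was at least 10.9-fold lower (limma adjusted p = 0.0112). The cyclin Ccna2 was at least 9.0-fold lower by the same rule, Ccnb2 differed by -3.21 ± 0.64, the cytokinesis factor Ect2 by -3.85 ± 0.88 and the phosphatase Cdkn3 by -4.48 ± 1.01.

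Some genes named above also separated the 2 doses, in a comparison that shares the 489.2 mg/kg arrays with the one against vehicle. Usp2 stood at 8.35, 8.36 and 8.18 at 489.2 mg/kg, against 7.16, 6.57 and 7.08 at 244.6 mg/kg. It was higher on every array (1.36 ± 0.25, SE, n = 3 each, limma adjusted p = 0.00858). Hsph1 stood at 10.76, 10.34 and 10.54, against 9.74, 9.40 and 9.40 at 244.6 mg/kg. This chaperone was also higher throughout (1.03 ± 0.20, limma adjusted p = 0.00943), as was Chordc1 (0.80 ± 0.15, limma adjusted p = 0.00992). Tfrc was higher by 1.11 ± 0.23, Cers6 by 1.11 ± 0.26 and Eri2 by 1.03 ± 0.23. Eri2 had not passed against the vehicle, where it differed by -0.08 ± 0.20. Lower than at 244.6 mg/kg were Angptl4 (-1.17 ± 0.23), Plin2 (-0.87 ± 0.16), Npas2 (-0.98 ± 0.20), Cdkn1a (-1.19 ± 0.28) and Olr59 (-1.27 ± 0.31). Of these 11 genes Plin2 kept its call in 5 and Usp2 in 5 of the 6 fits that left out 1 array, and the others in 1 to 4. For Ces2c (0.54 ± 0.30), Abcc3 (0.35 ± 0.34), Gsta3 (-0.64 ± 0.27) and Slc6a6 (-0.30 ± 0.31) no difference between these doses passed, with limma adjusted p-values from 0.341 to 0.784.

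Against the next higher dose 15 genes (0.106%) differed, all higher at 978.5 mg/kg than at 489.2 mg/kg. The count was 2 without replicate 3 and 126 without replicate 2 of 978.5 mg/kg, and 8, 44 and 3 without replicates 1, 2 and 3 of 489.2 mg/kg. Sult2a2, a hydroxysteroid sulfotransferase, stood at 7.13, 6.74 and 8.52 at 978.5 mg/kg, against 4.81, 3.68 and 4.05 at 489.2 mg/kg. At 489.2 mg/kg its mean was under the 20th percentile of all probe sets, so the level at 978.5 mg/kg was at least 6.6-fold higher (limma adjusted p = 1.68e-05). Abcb1a stood at 9.01, 9.50 and 9.64 at 978.5 mg/kg, against 8.10, 8.36 and 8.30 at 489.2 mg/kg. This pump thus stood higher at the higher dose on every array (1.13 ± 0.20, limma adjusted p = 0.0392). Insig2 had fallen at 489.2 mg/kg against vehicle and, in a comparison that shares the 489.2 mg/kg arrays, was higher by 0.79 ± 0.15 at 978.5 mg/kg. Ttc39a was higher by 1.41 ± 0.17, the stress gene Gadd45b by 1.18 ± 0.22, carbonic anhydrase Car2 by 1.18 ± 0.19 and the acylphosphatase Acyp2 by 1.14 ± 0.22. Sult2a2 and Ttc39a stayed called in all 6 fits that left out 1 array, and the others in 2 to 4.

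**Figure D5:**
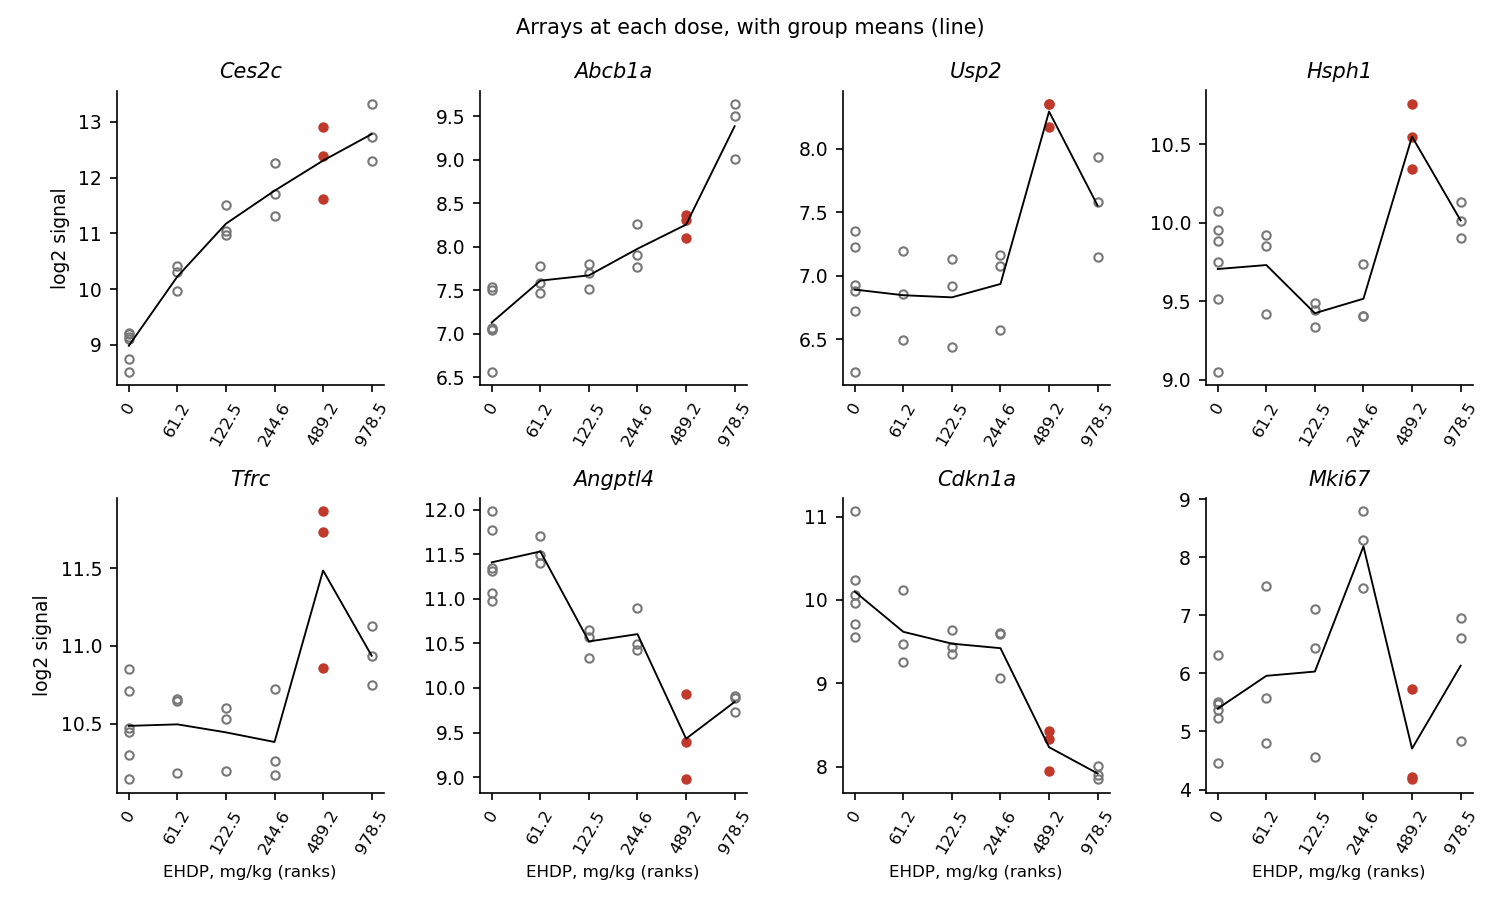
Log2 signals of 8 genes on every array against EHDP dose from 0 to 978.5 mg/kg, spaced by rank, with 489.2 mg/kg in filled red, other doses as open grey circles and group means as a line. Ces2c climbs with dose, Abcb1a is highest at 978.5 mg/kg, the means of Usp2, Hsph1 and Tfrc are highest at 489.2 mg/kg and Mki67 is highest at 244.6 mg/kg.

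For 4 genes whose mean was highest at 489.2 mg/kg, the difference from the top dose was tested gene by gene. Hsph1 stood at 10.01, 10.13 and 9.90 at 978.5 mg/kg, against 10.76, 10.34 and 10.54 at 489.2 mg/kg. The arrays did not overlap, yet the difference (-0.53 ± 0.20) did not pass over all genes (limma adjusted p = 0.245). Chordc1 (-0.54 ± 0.15, limma adjusted p = 0.163) and Usp2 (-0.74 ± 0.25, limma adjusted p = 0.217) did not overlap or pass either. Tfrc overlapped between these doses and did not pass (-0.55 ± 0.23, limma adjusted p = 0.298).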

How the data were processed

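The authors deposited log2 values. Per the submitters' processing notes these came from RMA, whose version is not given in the sources used here. Per the labels' protocols the input was 100 ng of total RNA per array. There were 31099 probe sets and 21 arrays. GEO's probe annotation gave exactly 1 gene for 20832 of them, several for 436 and none for 9831, and the last 2 kinds are not named. Each of 14218 genes was taken at its probe set with the highest mean, and no scaling was added. The number of arrays limits the precision.

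Groups came from the titles. Genes were tested with limma 3.58.1 (R 4.3.3), 1 mean per group over all 21 arrays, moderated test, Benjamini-Hochberg over all genes. With 2 arrays left in a group, they were assumed to vary like the other groups. Nothing beyond the labels says the arrays are separate animals of separate batches, so p-values measure the spread between these samples. Tables and plots used Python 3.11.15, pandas 2.3.3 and matplotlib 3.10.9.

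The members and the 39 gene lists (712 of 817 entries matched), written from general knowledge, were chosen with earlier results of these data known. Named were the 15 largest rises and falls without overlap between groups, up to 4 called members of each list, a set of known genes and the 5 largest rises and falls against each neighbouring dose; further list members were added after their values were seen. Some genes of the known set are not reported here. A level under the 20th percentile of probe sets (4.747) gave a lower bound. Promoters are RefSeq's on GRCr8. Alternatives covered probe set choice, filters, a floor, scaling, eBayes options, array weights, the arrays fitted, the replicate block and each array left out. On simulated data for this comparison, 100 of 14218 genes were changed at each size. There 77% of 1.5-fold and 99% of 2-fold changes were recovered, with 8 false calls. These rates describe the simulated data only. In the measured data the count of called genes ran from 157 to 514 as each array was left out. Whether the simulated rates hold for the measured arrays was not tested.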

Additional observations from a re-analysis of the deposited data

Results flagged for a closer look

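Each of the 107 named genes was examined for a vehicle array standing far from the other 5, by Dixon's gap test, and 4 did so, where chance gives about 1 in 20. Akr7a3 stood at 11.81 in vehicle replicate 4, above the others, while all treated arrays were still higher. Per3 stood at 4.83 in vehicle replicate 2, below the others and farther from the treated arrays. Dio1 stood at 8.40 in vehicle replicate 2 and Gadd45b at 6.74 in vehicle replicate 6, and neither passed the test at 489.2 mg/kg.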

How the results depend on the processing

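For 489.2 mg/kg against vehicle the 412 calls became 353 to 513 under the other probe set, filter, floor, scaling, eBayes and weight settings. Fitting the compared arrays alone gave 160 (84 higher, 76 lower). With each array left out the counts were 157 to 514 called, 89 to 266 higher and 68 to 270 lower. With the replicate number as a block 302 were called, 179 higher and 123 lower. Same-numbered arrays of the 2 groups deviated together at r = 0.126, 0.069 and 0.14. Each was the best match of its 489.2 mg/kg array among vehicle replicates 1 to 3, and vehicle replicates 4 to 6 were not compared. With 244.6 mg/kg r was 0.215, 0.031 and 0.165, again each the best match. With 978.5 mg/kg it was 0.123, -0.028 and 0.094, the best match for replicates 1 and 3. Not all were above 0.1, and the numbers were not taken as pairs. The p-values of the other sections therefore do not use the block. Whether same-numbered arrays share a batch was not tested. For 489.2 against 244.6 mg/kg, 242 calls (213 lower) became 93 (73) among genes above the median level, 99 (89) with the compared arrays alone, 257 (217) with the block and 41 to 339 (34 to 265) with each array left out. For 978.5 against 489.2 mg/kg, 15 calls became 42 with the mean of probe sets, 26 above the median level, 27 with eBayes trend and robust options, 6 with array weights, 27 with median centring, 0 with the compared arrays alone, 22 with the block and 2 to 126 with each array left out. In the limma fit that called 0, 1471 genes had an unadjusted p under 0.05. The causes were not tested. No named gene changed sign while called. Among the 107 named genes calls were lost for 40 with the compared arrays alone, 31 with the block and 37 without replicate 1 of 489.2 mg/kg.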

Other observations

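Of 10267 probe sets that the annotation does not pair with exactly 1 gene, 88 passed limma's test at 489.2 mg/kg, 44 higher and 44 lower, and 10 of them by at least 2-fold. The largest, 1371076_at, averaged 14.5 at 489.2 mg/kg, against 11.5 in the vehicle (2.99 ± 0.26, SE, n = 3 against 6, limma adjusted p = 4.26e-06).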
